A study of Mus musculus with 36 samples.

Results

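The genes described here are 10 members of the insulin and insulin-like growth factor (IGF) pathway, chosen by name from the 36172 gene entries of a hippocampal RNA sequencing table. They are the growth factors Igf1 and Igf2, the receptors Igf1r and Insr, the receptor substrates Irs1 and Irs2, and the binding proteins Igfbp2, Igfbp4, Igfbp5 and Igfbp6. IGF1 and IGF2 act through the IGF1 receptor and insulin through the insulin receptor, both of them kinases that phosphorylate the IRS proteins, which in turn recruit PI3 kinase and start Akt signalling. IGF-binding proteins hold the growth factors in the extracellular space and set how much reaches a receptor. In the brain, microglia are a known source of IGF1, and the choroid plexus and leptomeninges are known sources of IGF2.

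PolyA RNA was sequenced from the hippocampus of Cx3cr1-NuTRAP mice of both sexes. All animals carried the same genotype, in which a tamoxifen-inducible cre recombinase under the Cx3cr1 promoter switches on a GFP tag on ribosomes. Cx3cr1 is active in microglia and related macrophages, so that ribosome-bound RNA of these cells can be pulled down with an antibody to GFP (translating ribosome affinity purification, TRAP), while the input is the cleared homogenate before the pulldown. The 36 libraries were 29 inputs and 7 pulldowns. Young inputs came from 10 animals of 6 months induced early (5 females, 5 males). Old early inputs came from 12 animals of 22 months induced early (7 females, 5 males). Old late inputs came from 7 animals of 22 months induced late (5 females, 2 males), and the 7 TRAP libraries came from these same 7 animals. The labels name the induction early or late and give no induction age here. Every group had received tamoxifen, and only late-induced animals have pulldowns among the libraries analysed here. In the numbering of the libraries in the labels, the old early inputs, the old late animals and the young inputs follow each other as blocks, so that any effect of that order and these groups cannot be told apart. Inputs and pulldowns of the old late animals alternate in it.

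Library totals ranged from 12.9 M to 20.4 M estimated counts. Levels are given below as CPM, estimated counts scaled to a common library total. Cx3cr1, the gene whose promoter drives the cre, had 39.9 ± 5.09 CPM in the old late inputs (SD, n = 7) and 688 ± 134 CPM in the pulldowns (SD, n = 7), and every animal showed a ratio between 13.7 and 21.5. Genes of dentate granule cells and of the CA fields were present in all libraries, with summed levels of 373.0 to 523 CPM and 661 to 853 CPM over the 29 inputs. The inputs fell into sets that stood apart in the summed level of 12 choroid plexus genes, among them Ttr, Folr1 and Kl. This sum was between 59.0 and 209 CPM in 14 inputs and between 1804 and 4297 CPM in the other 15, with an 8.65-fold gap and no input in between. The inputs above the gap were 6 of 10 young, 4 of 12 old early and 5 of 7 old late. Replicate 5 of the old early inputs also stood apart in ribosomal protein transcripts, with a summed level of 80 Rpl and Rps genes of 19070 CPM.

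All 10 members passed the filter on low counts in every comparison. Per kilobase of exon, Igfbp2, Igfbp5, Igf2 and Igfbp4 held the first 4 places in the inputs and Igf1 the last place in all 4 groups. In the young inputs Igfbp2 had 43.1 ± 25.4 CPM per kilobase, Igfbp5 34.7 ± 2.46, Igfbp4 23.5 ± 1.71 and Igf2 22.2 ± 13.2 (SD, n = 10 each). Igfbp6 followed with 15.5 ± 2.77 CPM per kilobase, Irs2 with 9.35 ± 1.08, Igf1r with 4.20 ± 0.227, Insr with 4.15 ± 0.295, Irs1 with 2.16 ± 0.349 and Igf1 with 0.670 ± 0.0994 (SD, n = 10 each). The order between Igf1r and Insr lies within their spread, as does every order that involves Igf2 or Igfbp2 among the first 5, because the young inputs alone ranged from 22.9 to 141 CPM of Igfbp2 and from 32.5 to 222 CPM of Igf2.

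**Figure D1:**
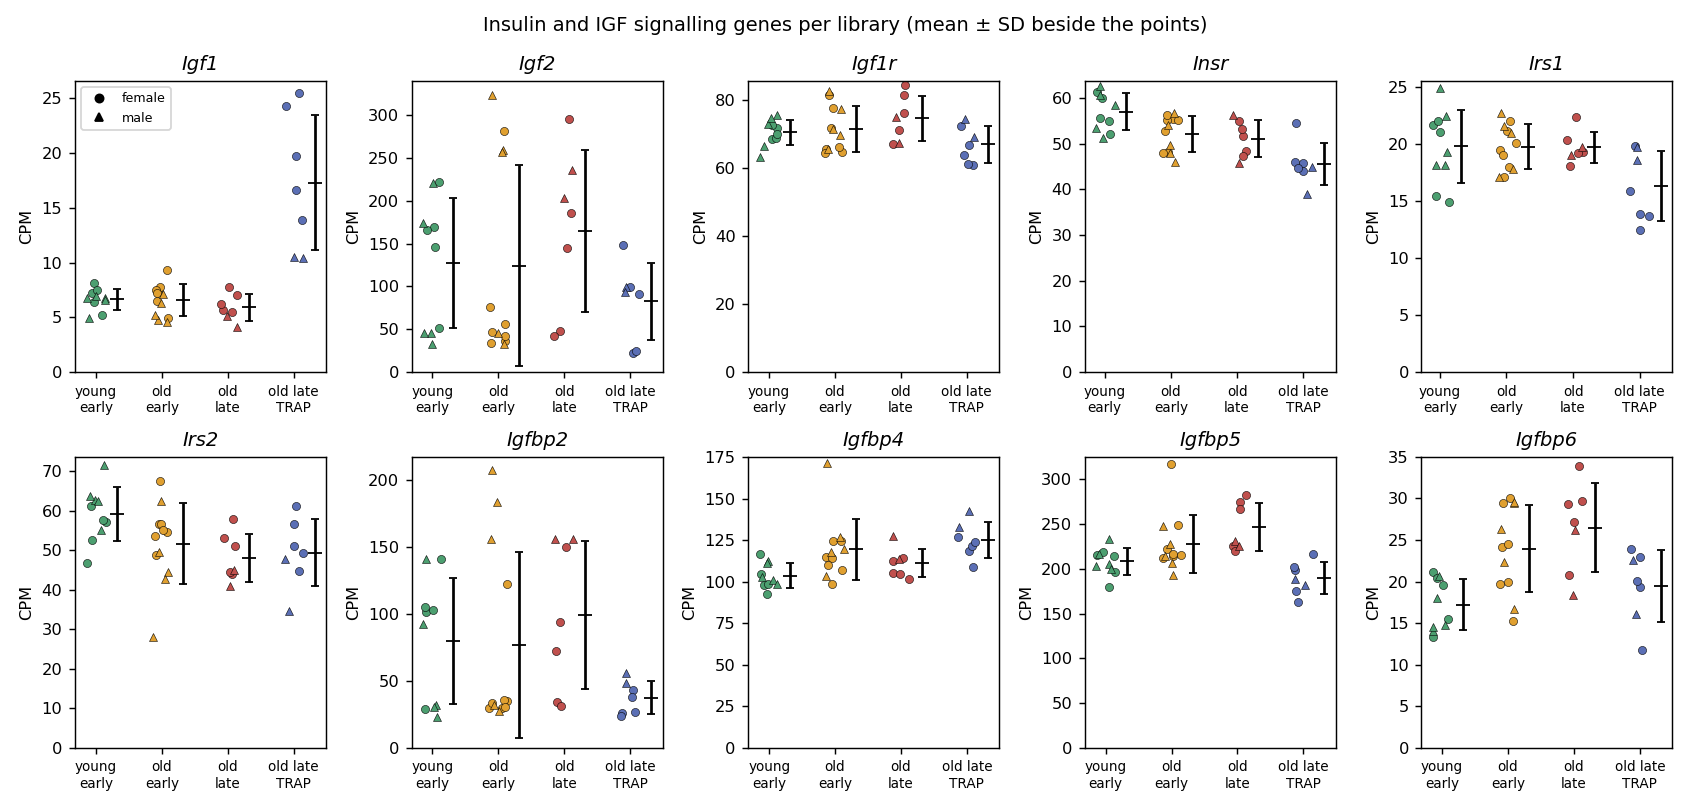
Level of each member in CPM (vertical axes, from 0) in every library of the 4 groups (horizontal axis), with circles for females, triangles for males and the mean ± SD beside the points. Igf1 was above 10 CPM in all 7 TRAP libraries and below it in all 29 inputs, while Igf2 and Igfbp2 fell into separate low and high sets within each input group.

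Promoter sequences are shown for 4 members whose levels carry the results: Igf1, which rose in the pulldown, Igf2 and Igfbp2, which moved together across libraries, and Igfbp6, which rose in both old groups. Each is the stretch of 250 bases before a RefSeq start (GRCm38.p6), written 5′ to 3′ on the gene's own strand. Of the 10 members, 9 had an entry. Igf1 is shown at chr10:87860861-87861110 on the plus strand, Igf2 at chr7:142657497-142657746 on the minus strand (the last of its 4 starts in the direction of transcription), Igfbp2 at chr1:72824230-72824479 on the plus strand (the first of its 2 starts), and Igfbp6 at chr15:102143936-102144185 on the plus strand. The Igf1 stretch lies inside the deposited span of the gene, which begins at chr10:87859056, so the start it precedes is an internal one. Capitals mark matches on either strand to 7 motifs, and no matches overlap in these stretches.
Igf1: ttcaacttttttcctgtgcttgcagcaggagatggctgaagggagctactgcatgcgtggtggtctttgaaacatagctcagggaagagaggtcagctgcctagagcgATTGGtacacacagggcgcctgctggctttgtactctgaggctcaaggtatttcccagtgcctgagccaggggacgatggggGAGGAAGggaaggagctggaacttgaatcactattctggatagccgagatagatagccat
Igf2: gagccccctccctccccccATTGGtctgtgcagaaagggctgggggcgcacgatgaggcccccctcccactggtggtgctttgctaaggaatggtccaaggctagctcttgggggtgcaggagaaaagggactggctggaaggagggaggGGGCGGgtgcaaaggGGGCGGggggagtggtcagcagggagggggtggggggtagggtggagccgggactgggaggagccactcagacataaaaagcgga
Igfbp2: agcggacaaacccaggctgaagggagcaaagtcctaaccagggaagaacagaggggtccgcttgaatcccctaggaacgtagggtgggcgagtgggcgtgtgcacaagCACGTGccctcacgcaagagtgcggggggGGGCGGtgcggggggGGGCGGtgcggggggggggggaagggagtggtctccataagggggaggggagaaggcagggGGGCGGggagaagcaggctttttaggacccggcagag
Igfbp6: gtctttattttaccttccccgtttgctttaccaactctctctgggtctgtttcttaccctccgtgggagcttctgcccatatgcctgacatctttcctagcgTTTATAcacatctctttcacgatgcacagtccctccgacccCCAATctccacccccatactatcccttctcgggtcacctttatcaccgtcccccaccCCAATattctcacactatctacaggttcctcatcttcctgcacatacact

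Each motif was searched on both strands and counted among 32851 mouse promoter stretches of the same length. The TATA box TATAAA occurred in 12.4% of them, the box CCAAT known from NF-Y binding in 33.9%, and the GC box GGGCGG known from Sp1 binding in 32.7%. The core TAATCC of Otx factors occurred in 6.25%, the forkhead core GTAAACA in 3.17%, the E-box CACGTG in 6.02%, and the core GAGGAAG known from PU.1 binding in 10.6%. The Igf2 and Igfbp2 stretches had 2 and 3 GGGCGG matches and a GC content of 66.0% and 67.2%, against a median of 52.4% over all stretches. Igf2 also had 1 CCAAT match and Igfbp2 1 CACGTG match. Other starts of these genes differed, with GC contents of 50.8%, 47.6% and 68.8% and 0, 0 and 1 GGGCGG matches at the other Igf2 starts, and 56.4% and 0 matches at the other Igfbp2 start. Neither trait was particular to this pair. Among the members not shown, GC content and GGGCGG matches were 77.6% and 2 for Igf1r, 72.4% and 2 for Irs1, and 72.8% and 1 for Irs2. They were 69.2% and 0 for Igfbp4 and 58.8% and 0 for Igfbp5. The Igf1 stretch held 1 CCAAT and 1 GAGGAAG match at 52.8% GC, and the Igfbp6 stretch 1 TATAAA and 2 CCAAT matches at 49.6% GC.

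The pulldown was compared with the input of the same 7 animals to ask which transcripts were at a higher level in ribosome-bound RNA of the tagged cells. Igf1 was the member with the largest increase and Igfbp4 rose slightly. Lower levels were called for 6 members, namely Igf1r, Insr, Irs1, Igfbp2, Igfbp5 and Igfbp6, and the levels of Igf2 and Irs2 did not pass the test. Thus 8 of 10 members were called by edgeR's quasi-likelihood test (Benjamini-Hochberg adjusted p under 0.05), where 59.2% of 14596 genes tested were called, 4442 higher and 4198 lower. This fit did not pair the libraries by animal. In a paired fit with the animal as a replicate block, 9 members were called, with Igf2 now lower, where 63.9% of all genes were called. How many of all genes had no overlap between the ranges of inputs and pulldowns was not counted. In bulk samples such as these, fewer cells of a type and less RNA per cell cannot be told apart.

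Igf1 encodes the growth factor IGF1 (gene 16000, chr10:87859056-87937047). In the old late inputs it had 4.11, 5.66 and 7.75 CPM (lowest, median and highest of 7), and in the pulldowns 10.5, 16.6 and 25.5 CPM. The ranges did not overlap, and the ratio of pulldown to input was above 1 in 7 of 7 animals, between 2.06 and 3.57. The log2 fold change was 1.50 ± 0.145 (SE), a 2.84-fold higher level (edgeR adjusted p = 1.35e-07), beside 4.09 ± 0.117 (SE) for Cx3cr1 (edgeR adjusted p = 1.65e-14). Igf1 was highest in pulldowns 5 and 3, with 25.5 and 24.3 CPM, which also had the highest Cx3cr1 levels, 859 and 899 CPM. The inputs of the same animals had the highest Igf1 of the 7 inputs too, 7.75 and 7.05 CPM. The largest Igf1 ratio, 3.57, was in animal 4, with a Cx3cr1 ratio of 15.5. Both male pulldowns had 10.5 CPM and the 5 female pulldowns 13.9 to 25.5 CPM. Whether the increase differs between the sexes was not tested. The increase was called in the 2 animals below the choroid plexus gap alone (log2 1.80, edgeR adjusted p = 6.32e-05) and in the 5 above it alone (log2 1.38, edgeR adjusted p = 2.86e-05).

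Genes of several cell types were higher in the same pulldowns. All 18 microglia genes were called higher, and their summed level was 885 to 1306 CPM in the inputs and 15950 to 25940 CPM in the pulldowns. All 10 genes of border macrophages rose too, with a sum of 24.6 to 56.5 CPM in the inputs and 397 to 682 CPM in the pulldowns. The 12 endothelial genes were all called higher, with sums of 190 to 249 CPM and 350 to 514 CPM (lowest and highest, inputs and pulldowns). None of these markers was at 0 in all libraries of a group, and the part of each cell type in the Igf1 level was not tested.

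Igf2 encodes the growth factor IGF2 (gene 16002, chr7:142650768-142661035). Its level was 41.5, 186 and 295 CPM in the old late inputs (lowest, median and highest of 7) and 22.5, 92.9 and 148 CPM in the pulldowns. The ranges overlapped, but the ratio was below 1 in 7 of 7 animals, between 0.421 and 0.631. Without regard to the animal, the log2 value of -0.98 ± 0.440 (SE) missed the threshold (edgeR adjusted p = 0.0650). In the paired fit with the animal as a replicate block, Igf2 was called lower with nearly the same value (log2 -0.98, edgeR adjusted p = 2.06e-09), which brought the called members to 9, where 63.9% of all genes were called. The unpaired value was also called when input 3, input 4 or pulldown 6 was left out (log2 -1.14, -1.17 and -1.25). Igf2 overlaps the antisense gene Igf2as, which had at most 28.5 counts in any library.

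The receptors changed by small amounts. Igf1r, the receptor of both growth factors (gene 16001, chr7:67952257-68233667), had 67.3, 75.0 and 84.5 CPM in the inputs and 61.0, 67.0 and 74.6 CPM in the pulldowns (lowest, median and highest of 7). Its log2 fold change was -0.17 ± 0.064 (SE), with a lower level in 6 of 7 animals (edgeR adjusted p = 0.0354). Insr, the insulin receptor (gene 16337, chr8:3150922-3279617), had 45.7, 51.8 and 56.2 CPM in the inputs and 39.1, 44.9 and 54.5 CPM in the pulldowns. It was lower in 7 of 7 animals (log2 -0.17 ± 0.069 SE, edgeR adjusted p = 0.0390). In the paired fit with the animal as a replicate block, the edgeR adjusted p was 0.0235 for Igf1r and 0.00928 for Insr. Without regard to the animal, both calls sat near the threshold. That of Igf1r was lost when input 1, 6 or 7 or pulldown 3, 4 or 6 was left out (edgeR adjusted p up to 0.108), and that of Insr without input 1, 6 or 7 or without pulldown 1, 2, 3, 4 or 6 (up to 0.106). Neither receptor was called on either side of the choroid plexus gap alone or without the filter on low counts, and Insr was not called in females alone (log2 -0.12, edgeR adjusted p = 0.180).

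The substrates differed from each other. Irs1 (gene 16367, chr1:82233105-82291439), which docks PI3 kinase to the active receptors, had 18.1, 19.3 and 22.4 CPM in the inputs and 12.5, 15.9 and 19.8 CPM in the pulldowns (lowest, median and highest of 7). It was lower in 7 of 7 animals, and edgeR gave a log2 value of -0.29 ± 0.101 (SE) and an adjusted p of 0.0214. The paired fit gave a log2 value of -0.30 (edgeR adjusted p = 0.00778). Irs1 was not called below or above the choroid plexus gap alone (log2 -0.48 and -0.21, edgeR adjusted p = 0.0517 and 0.169) or without the filter on low counts (edgeR adjusted p = 0.0539). The 2 male animals had Irs1 ratios of 0.975 and 0.996, and the 5 females 0.615 to 0.886. Irs2, the other substrate (gene 384783, chr8:10986964-11008430), had 40.9, 45.1 and 57.9 CPM in the inputs and 34.7, 49.3 and 61.3 CPM in the pulldowns, and the ranges overlapped almost fully. Its log2 fold change was 0.03, with a 95% interval from -0.16 to 0.22 (edgeR adjusted p = 0.807).

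Among the binding proteins, Igfbp5 separated input from pulldown without overlap. Igfbp5 (gene 16011, chr1:72858065-72874865), a binding protein that also attaches to the extracellular matrix, had 220.3, 231 and 282 CPM in the inputs and 163, 189 and 217 CPM in the pulldowns (lowest, median and highest of 7). The ratio was between 0.722 and 0.837 in all 7 animals, and edgeR gave a log2 value of -0.39 ± 0.071 (SE) with an adjusted p of 0.000196. Igfbp6, which binds IGF2 with preference (gene 16012, chr15:102144186-102149512), had 18.4, 27.2 and 33.9 CPM in the inputs and 11.8, 20.1 and 23.9 CPM in the pulldowns. It was lower in 7 of 7 animals (log2 -0.44 ± 0.150 SE, edgeR adjusted p = 0.0189), and in the animals above the choroid plexus gap alone the call was lost (log2 -0.33, edgeR adjusted p = 0.175). Igfbp4 (gene 16010, chr11:99041260-99052643), whose protein is cut by the protease PAPP-A, had 101, 112 and 127 CPM in the inputs and 109, 124 and 142 CPM in the pulldowns. It was higher in 6 of 7 animals by a small amount (log2 0.16 ± 0.049 SE, edgeR adjusted p = 0.0106). The Igfbp4 call was lost below and above the choroid plexus gap taken alone (log2 0.18 and 0.15, edgeR adjusted p = 0.204 and 0.0519). It was also lost with upper quartile scaling (log2 0.02) and with library size alone (log2 0.05), settings that moved the median of all genes from -0.02 to -0.16 and -0.13 and the calls to 3280 higher against 6372 lower and to 3564 against 5748.

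Igfbp2 showed the largest fall among the binding proteins, and it differed by animal. Igfbp2 (gene 16008, chr1:72824480-72852471), which lies 5593 bases from Igfbp5 on the same chromosome, had 31.4, 93.9 and 156 CPM in the inputs and 23.7, 37.5 and 55.8 CPM in the pulldowns (lowest, median and highest of 7). It fell by 1.38 ± 0.280 (SE) on the log2 scale (edgeR adjusted p = 0.000465), with a ratio below 1 in 7 of 7 animals. In the 2 animals below the choroid plexus gap the ratios were 0.748 and 0.856, and in the 5 above it they were 0.251 to 0.600, without overlap. Fitted alone, the low animals gave a log2 value of -0.33 (edgeR adjusted p = 0.0710) and the high animals -1.60 (edgeR adjusted p = 1.46e-05). The Igf2 ratios overlapped between the same animals, and Igf2 was called lower in both sets, at -0.94 and -1.01 (edgeR adjusted p = 0.000429 and 0.000517). With the choroid plexus sum as a covariate over all 14 libraries, Igf2 had a log2 value of -0.16 (edgeR adjusted p = 0.323) and Igfbp2 of -0.84 (edgeR adjusted p = 0.00103), and the calls of Igf1r and Insr were lost (edgeR adjusted p = 0.116 and 0.0849). That sum was itself lower in the pulldowns. The splits and the covariate were chosen after the data were seen, and the difference between the sets was not tested.

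**Figure D2:**
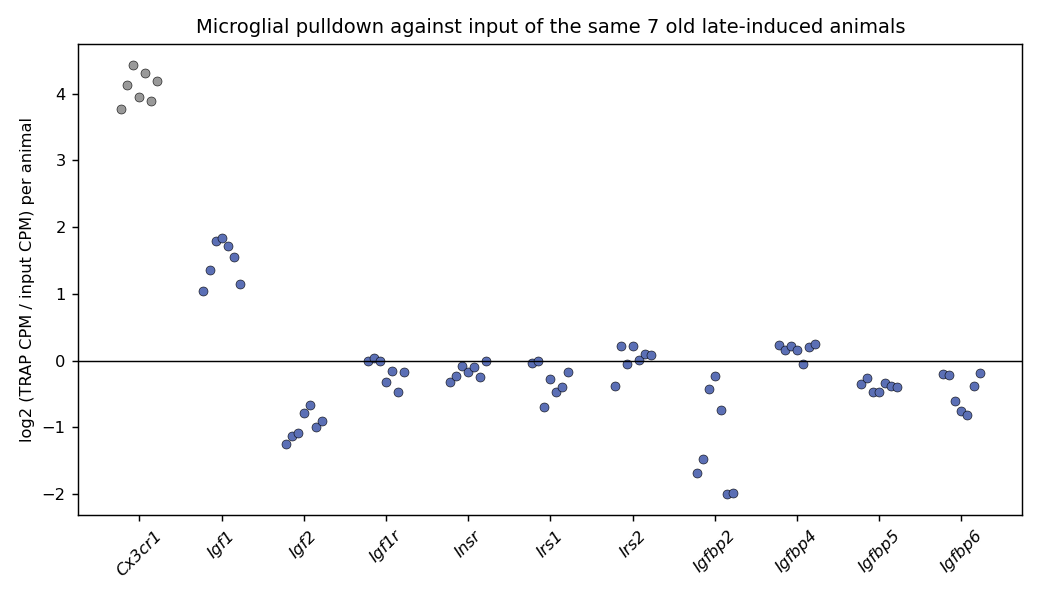
Log2 ratio of pulldown to input CPM (vertical axis) for each of the 7 old late-induced animals, for Cx3cr1 and the 10 members (horizontal axis). Cx3cr1 lies between 3.78 and 4.42 and Igf1 between 1.04 and 1.84, while all 7 points of Igf2, Insr, Irs1, Igfbp2, Igfbp5 and Igfbp6 lie below 0.

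Genes of other cell types were lower in the pulldowns, beside the members that fell. Of the choroid plexus genes 9 of 12 were called lower, and their sum was 59.0 to 3639 CPM in the inputs and 35.3 to 1279 CPM in the pulldowns. Of 13 genes of leptomeninges and fibroblasts 10 were lower, with sums of 111 to 229 and 60.4 to 115 CPM. All 12 oligodendrocyte genes and 11 of 12 astrocyte genes fell as well, and their part in the levels of the members was not tested. Of 12 neuron genes 11 were tested and 6 were lower, with sums of 12760 to 13930 CPM and 10210 to 12120 CPM.

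Across the inputs, Igf2 and Igfbp2 followed the choroid plexus genes. Igf2 had 32.5 to 75.7 CPM in the 14 inputs below the gap and 145 to 324 CPM in the 15 above it, with medians that differed 4.83-fold. Igfbp2 had 22.9 to 35.7 CPM and 72.3 to 207 CPM in the same inputs, a 4.56-fold difference of medians. The ranges did not overlap for either gene, whereas those of the other 8 members overlapped, with ratios of medians between 0.942 (Irs2) and 1.14 (Irs1). How many of all genes separated the inputs at the gap in this way was not counted. Every input group held libraries of both kinds, so that the spread of Igf2 and Igfbp2 within a group was wide, with a coefficient of variation of 56.0% to 94.2%, while that of the other 8 members was 5.40% to 22.0%.

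Within the 15 inputs above the gap, the log2 CPM of Igfbp2 rose with the log2 of the choroid plexus sum (Pearson r = 0.970, permutation p = 1e-05, the smallest the resampling can give, Spearman rho = 0.918). Without the 2 inputs farthest from the median sum r was 0.956. Igf2 also rose with it (r = 0.788, permutation p = 0.000880, rho = 0.768, r = 0.746 without the 2 farthest). Igf1 fell with it (r = -0.681, permutation p = 0.00612, rho = -0.689, r = -0.58 without the 2 farthest). After Benjamini-Hochberg adjustment over the 20 relations computed, the p-values of r were 0.0002, 0.0088 and 0.0408. The other 7 members had adjusted p-values from 0.0978 to 0.936. In the 14 inputs below the gap none of the 10 members passed (lowest adjusted p = 0.177). The 15 inputs mix young and old groups and both sexes, which the permutations did not take into account. Above the gap the choroid plexus sum was 2118 to 4297 CPM in males and 1804 to 3499 CPM in females. The part of sex and age in these relations was not tested.

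The genes most like Igf2 over the 29 inputs, after subtraction of group means, were Ace, Bmp6 and Slc13a4, with Pearson r of log2 CPM of 0.992, 0.98 and 0.98. Those most like Igfbp2 were Sostdc1, 1500015O10Rik and Slc2a12 (r = 0.987, 0.985 and 0.985), and Igf2 and Igfbp2 had r = 0.975 with each other. These libraries share their dissection and depth, and 1 gene in 100 reached r = 0.882 with Igf2 and 0.9 with Igfbp2, so the values describe the libraries only. Sostdc1 is one of the choroid plexus genes, and Bmp6 and Slc13a4 are in the list of leptomeninges and fibroblasts. The summed level of that list was 90.8 to 142 CPM below the gap and 137 to 317 CPM above it. Other lists differed too, with overlapping ranges. Median sums below and above the gap were 149 and 206 CPM for thalamus and striatum genes and 207 and 346 CPM for blood genes. For neuron genes they were 14360 and 13680 CPM. For the other members the nearest genes were less close, from r = 0.686 (Zfp612 with Igf1) to 0.922 (Ncoa6 with Irs2).

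**Figure D3:**
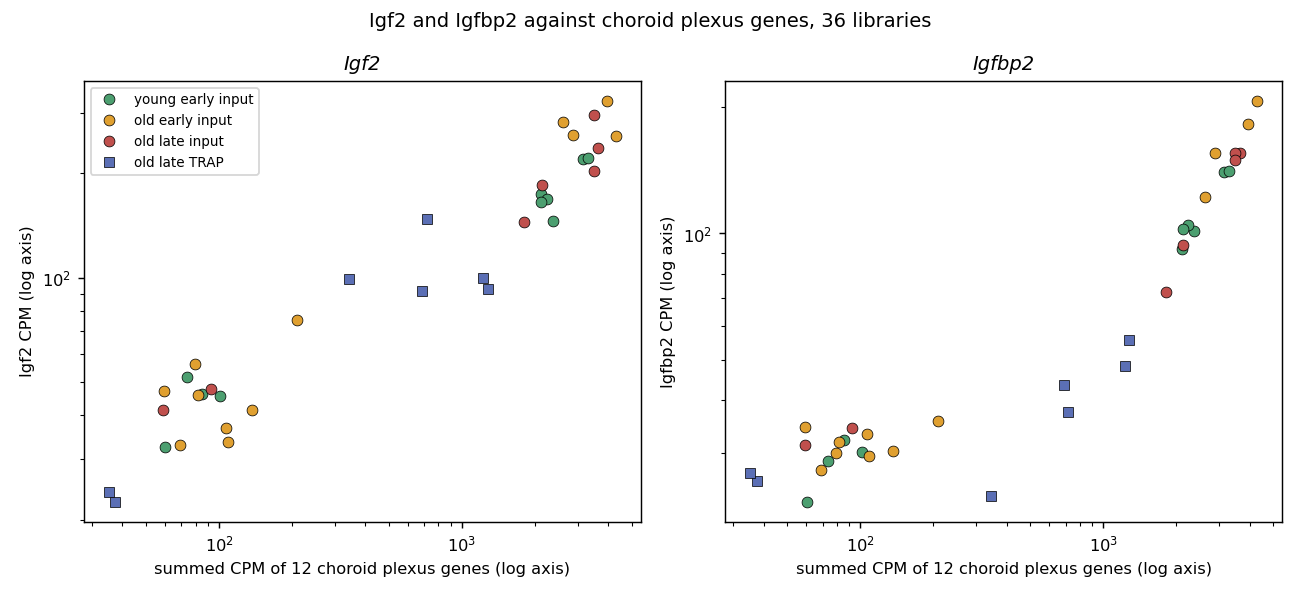
Level of Igf2 (left) and Igfbp2 (right) in CPM (vertical log axes) against the summed CPM of 12 choroid plexus genes (horizontal log axes) in all 36 libraries, coloured by group, with squares for pulldowns. Inputs form a low set up to 209 CPM and a high set from 1804 CPM, and both genes are higher throughout the high set.

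The old inputs were compared with the young inputs to ask which members changed with age in whole hippocampal tissue. Igfbp6 rose and Insr fell in both old groups, Igfbp4 rose in the old early group, and Igfbp5 rose and Irs2 fell in the old late group. Of 10 members 3 were called in old early against young, where 25.6% of 14948 genes were called, and 4 of 10 in old late against young, where 34.5% of 14948 were called. Both comparisons share the 10 young inputs. The shares of members called are near those of all genes.

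Igfbp6 had the largest called change. It had 13.4, 16.8 and 21.2 CPM in the young inputs, 15.3, 24.4 and 30.02 CPM in the old early inputs and 18.4, 27.2 and 33.9 CPM in the old late inputs (lowest, median and highest). The ranges overlapped, with 8 of 12 old early and 5 of 7 old late inputs above every young input. It rose by 0.48 ± 0.121 (SE) on the log2 scale in old early (edgeR adjusted p = 0.00376) and by 0.62 ± 0.139 (SE) in old late (edgeR adjusted p = 0.000969), or 1.40-fold and 1.54-fold. Among inputs above the choroid plexus gap alone Igfbp6 was called in both comparisons (log2 0.72 and 0.44, edgeR adjusted p = 0.00445 and 0.0259). Below the gap it was called in old late (log2 0.94, edgeR adjusted p = 0.00511) and not in old early (log2 0.40, edgeR adjusted p = 0.115). In females alone the old early change was not called (log2 0.38, edgeR adjusted p = 0.146).

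Igfbp5 and Igfbp4 rose by less. Igfbp5 had 179.8, 210 and 233 CPM in the young inputs, 193, 216 and 318 CPM in the old early inputs and 220.3, 231 and 282 CPM in the old late inputs (lowest, median and highest). It was called in old late (log2 0.24 ± 0.072 SE, edgeR adjusted p = 0.00956), though not below the choroid plexus gap alone (log2 0.22, edgeR adjusted p = 0.342), and not in old early (log2 0.13 ± 0.062 SE, edgeR adjusted p = 0.118). For Igfbp4 the young inputs had 92.7, 102 and 117 CPM, the old early inputs 98.7, 116 and 171 CPM, and the old late inputs 101, 112 and 127 CPM. It was called in old early (log2 0.22 ± 0.060 SE, edgeR adjusted p = 0.00724), though not in females alone (log2 0.16, edgeR adjusted p = 0.125) or on either side of the choroid plexus gap alone (log2 0.20 below and 0.25 above, edgeR adjusted p = 0.0652 and 0.124), and not in old late (log2 0.14 ± 0.070 SE, edgeR adjusted p = 0.120). The old late value was called without young replicate 5 (log2 0.17, edgeR adjusted p = 0.0469) and with only those groups in the fit (log2 0.13, edgeR adjusted p = 0.0364). The highest Igfbp4 level, 171 CPM, was in old early replicate 5, the input with the most ribosomal protein transcripts. The sum of those 80 genes was 13160 to 14480 CPM in young, 13910 to 19070 CPM in old early and 14240 to 16940 CPM in old late inputs, and its part in these levels was not tested.

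The receptor and substrate changes were small. Insr had 51.3, 57.01 and 62.5 CPM in the young inputs, 45.9, 53.5 and 56.8 CPM in the old early inputs and 45.7, 51.8 and 56.2 CPM in the old late inputs (lowest, median and highest). It fell by 0.12 ± 0.046 (SE) on the log2 scale in old early (edgeR adjusted p = 0.0464) and by 0.15 ± 0.053 (SE) in old late (edgeR adjusted p = 0.0295). The old early call was lost without any one of young replicates 1, 2, 3, 8 and 9 and of old early replicates 2, 5, 7, 8, 9 and 10 (edgeR adjusted p up to 0.0946). The old late call was lost without young replicate 3 or old late replicate 2 or 5 (up to 0.101). In females alone Insr was called in neither comparison (log2 -0.10 and -0.14, edgeR adjusted p = 0.334 and 0.116), nor below the choroid plexus gap alone (log2 -0.07 and -0.17, edgeR adjusted p = 0.605 and 0.275). Above the gap alone it was called in old early (log2 -0.26, edgeR adjusted p = 0.0250) and not in old late (log2 -0.14, edgeR adjusted p = 0.131). With upper quartile scaling both calls were lost (edgeR adjusted p = 0.0715 and 0.0521), and without the filter on low counts that in old early (edgeR adjusted p = 0.0560).

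Irs2 had 46.7, 59.5 and 71.5 CPM in the young inputs, 28.1, 54.1 and 67.4 CPM in the old early inputs and 40.9, 45.1 and 57.9 CPM in the old late inputs (lowest, median and highest). The lowest value was again that of old early replicate 5. Irs2 fell by 0.31 ± 0.109 (SE) on the log2 scale in old late (edgeR adjusted p = 0.0275), with 4 of 7 inputs below every young input. That call was lost in females alone (log2 -0.12, edgeR adjusted p = 0.354), and leaving out old late replicate 2 or 5 also ended it (up to 0.0744), as did taking either side of the choroid plexus gap alone (log2 -0.39 below and -0.20 above, edgeR adjusted p = 0.0792 and 0.289). In old early the log2 value was -0.20 (edgeR adjusted p = 0.116), and it was called without old early replicate 6 (log2 -0.25, edgeR adjusted p = 0.0484).

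Igf1, Igf1r, Irs1, Igf2 and Igfbp2 were not called in either age comparison. Igf1 had a median of 6.76 CPM in young, 6.81 CPM in old early and 5.66 CPM in old late inputs, and the 95% intervals of its log2 fold changes ran from -0.26 to 0.17 and from -0.48 to 0.03. For Igf1r they ran from -0.07 to 0.13 and from -0.02 to 0.22, and for Irs1 from -0.14 to 0.16 and from -0.16 to 0.19. The intervals of Igf2, from -1.03 to 0.82 and from -0.64 to 1.44, and of Igfbp2, from -1.03 to 0.65 and from -0.63 to 1.25, were far wider. Above the choroid plexus gap the 4 old early inputs had 257 to 324 CPM of Igf2 and the 6 young inputs 146 to 222 CPM, without overlap. In that set Igf2 was called higher (log2 0.58 ± 0.157 SE, edgeR adjusted p = 0.0211), where 13.7% of 14976 genes were called. The direction was opposite to the log2 value of -0.11 over all inputs, and below the gap the log2 value was -0.08 (edgeR adjusted p = 0.847). How many of all genes had no overlap between the young and old early inputs of that set was not counted. The choroid plexus sum of these 4 old early inputs was 2615 to 4297 CPM and that of the 6 young inputs 2118 to 3284 CPM.

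**Figure D4:**
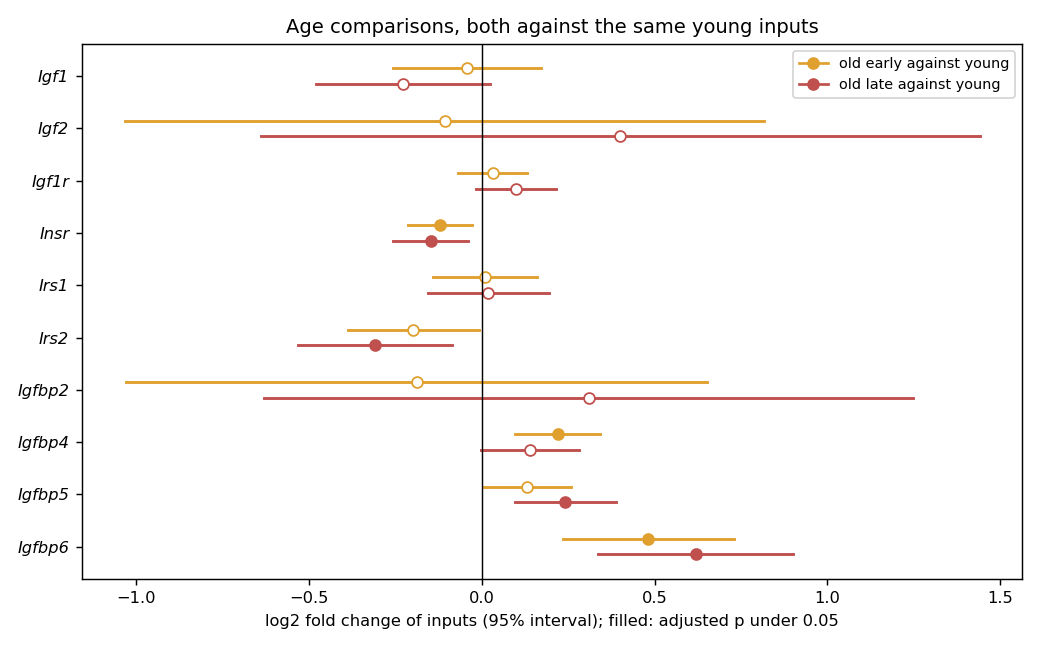
Log2 fold change of each member (horizontal axis) with its 95% interval in old early and old late inputs against the same 10 young inputs, with filled points for an edgeR adjusted p under 0.05. Filled points lie to the right for Igfbp4, Igfbp5 and Igfbp6 and to the left for Insr and Irs2, and the intervals of Igf2 and Igfbp2 are the widest.

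Genes of several cell types changed with age in the same inputs, where 25.6% and 34.5% of all genes were called in old early and old late. Of the 18 microglia genes 17 rose in old early and 18 in old late, with sums of 598 to 706 CPM in young, 816 to 1001 CPM in old early and 885 to 1306 CPM in old late inputs. Of 12 oligodendrocyte genes 10 and 11 rose, with sums of 3271 to 5060, 4125 to 6029 and 4418 to 7299 CPM in the same order. Of 12 mural cell genes 11 were tested and 3 rose in each comparison (27.3%, near or below the shares of all genes). Their sums were 117 to 156, 126 to 199.8 and 151 to 182 CPM, and Acta2 was listed at 0 in every library. Of 12 astrocyte genes 4 rose in each comparison (33.3%). Of 8 genes of oligodendrocyte precursors 2 rose and 3 fell in each. Of 5 blood genes tested 3 rose in old early and 5 in old late, with sums of 143 to 346, 130.1 to 2281 and 276 to 719.9 CPM, the highest of them in old early replicate 5. Of 7 dentate granule cell genes 4 and 5 fell, with sums of 459 to 523, 381 to 493.1 and 373.0 to 451 CPM. No gene of the choroid plexus or leptomeninges lists was called in either comparison. The part of these cell types in the changes of Igfbp4, Igfbp5, Igfbp6, Insr and Irs2 was not tested.

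The old late inputs were compared with the old early inputs to ask whether the age at induction went with a difference in the tissue. No member was called by edgeR, and none had an unadjusted p under 0.05. Of 14948 genes 0.0334% were called. DESeq2 and limma voom called no member either. The 95% intervals of the log2 difference lay within -0.43 and 0.41 for the 8 members other than Igf2 and Igfbp2, for which they ran from -0.51 to 1.52 and from -0.42 to 1.41.

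Sex was compared across the 29 inputs with group in the model. No member was called by edgeR, DESeq2 or limma voom, where edgeR called 0.174% of 14948 genes. Igf1 and Igfbp4 had an unadjusted p under 0.05. Igf1 was lower in males by 0.29 ± 0.095 (SE) on the log2 scale (edgeR p = 0.00418, adjusted p = 0.272). In the young group males had 4.91 to 6.98 CPM of Igf1 and females 5.18 to 8.17 CPM, and in the old early group 4.56 to 7.16 CPM and 4.95 to 9.29 CPM, so the sexes overlapped in both. In the old late group the 2 males had 4.11 and 5.07 CPM, below the 5.52 to 7.75 CPM of all 5 females.

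Whether the age change differed between the sexes was tested on the 22 early-induced inputs. No member was called by edgeR, DESeq2 or limma voom, and edgeR called 0% of 14953 genes, with 2301 at an unadjusted p under 0.05. DESeq2 called 4 genes higher and 9 lower, and limma voom none. Irs2 and Igfbp2 had an unadjusted p under 0.05 by edgeR. The Irs2 change was lower in males than in females by 0.49 ± 0.173 (SE) on the log2 scale (edgeR p = 0.00871, adjusted p = 0.226), and it was called when old early replicate 6 was left out (log2 -0.63, edgeR adjusted p = 0.0321). In males Irs2 was 55.1 to 71.5 CPM in young and 28.1 to 62.4 CPM in old early inputs, and in females 46.7 to 61.3 and 48.8 to 67.4 CPM. The Igfbp2 value was 2.00 ± 0.754 (SE) on the log2 scale (edgeR p = 0.0137, adjusted p = 0.244). The choroid plexus sum was above the gap in 2 of 5 young males, 3 of 5 old early males, 4 of 5 young females and 1 of 7 old early females.

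The other 103 genes of the pathway lists were read against the same background. In the pulldown 95 were tested, of which 35 rose and 24 fell (62.1%, against 59.2% of all genes), and their median log2 fold change was 0, against -0.02 over all genes. The 2 insulin genes were among those that did not pass the filter, with Ins2 at no more than 0.670 CPM and Ins1 at no more than 0.0588 CPM in any library. Of the PI3 kinase, Akt and mTOR list 11 of 26 rose and 6 fell. Pik3cg and Pik3r5, subunits of the PI3 kinase gamma complex of immune cells, rose 16.8-fold and 11.6-fold, from 4.87 ± 1.50 to 81.9 ± 17.5 CPM and from 5.05 ± 1.17 to 59.1 ± 13.1 CPM (SD, n = 7 each). Mtor, the kinase of the mTOR complexes, fell from 105 ± 7.44 to 57.7 ± 3.02 CPM (SD, n = 7 each).

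Of 18 inhibitors and insulin-degrading enzymes 8 rose and 4 fell in the pulldown. Inpp5d, a lipid phosphatase of blood and immune cells that removes the product of PI3 kinase, rose 16.9-fold, from 17.2 ± 3.54 to 294 ± 67.8 CPM (SD, n = 7 each, edgeR adjusted p = 3.91e-15). Socs3, a feedback inhibitor of cytokine and insulin signalling, rose 2.49-fold, and Grb14, an adaptor that inhibits the insulin receptor, fell to 0.634 of the input level. Of 12 docking and adaptor genes tested 6 rose and 1, Dok4, fell. Dok1 and Sh2b2, adaptors at tyrosine kinase receptors, had log2 fold changes of 2.99 ± 0.168 and 2.20 ± 0.117 (SE). In the list of binding proteins and their regulators 1 of 10 tested rose, the RNA-binding protein gene Igf2bp2, from 0.529 ± 0.348 to 6.41 ± 3.14 CPM (SD, n = 7 each). Its inputs went down to 0.0602 CPM, so it passed the filter on low counts only with the pulldowns, where it is high. Its rise is therefore given as a description. Htra1, Igfbp3 and Igfbpl1 fell. Igf2r, which takes IGF2 up for degradation, fell by 0.46 ± 0.071 (SE) on the log2 scale. Foxo factors and their targets rose and fell in equal number, 4 of 15 each. Txnip, which restrains glucose uptake, rose 4.88-fold, while Pdk4, an inhibitor of pyruvate oxidation, fell to 0.505 of the input level. Ras and MAP kinase genes were also even, with 5 of 12 in each direction.

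**Figure D5:**
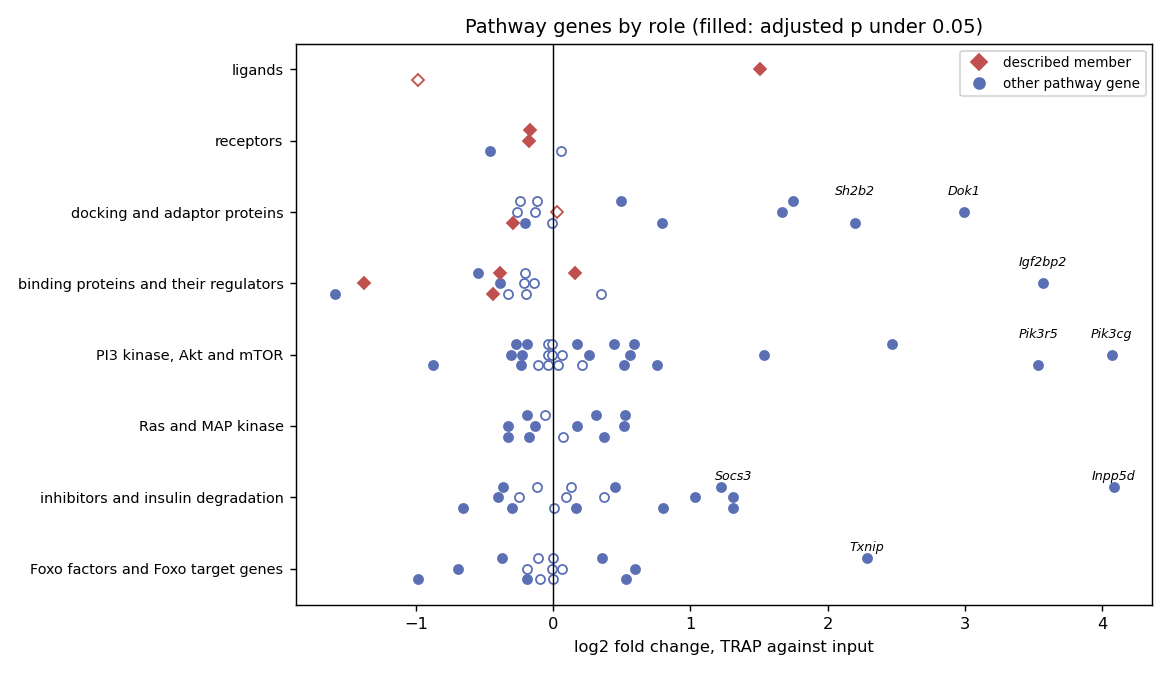
Log2 fold change of pulldown against input (horizontal axis) for the 10 members (diamonds) and the other tested pathway genes (circles), in rows by role, with filled symbols for an edgeR adjusted p under 0.05. Inpp5d, Pik3cg, Igf2bp2 and Pik3r5 lie at 4.08, 4.07, 3.57 and 3.53, to the right of Igf1 at 1.50. Igf2bp2 passed the filter on low counts only with the pulldowns, where it is high.

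With age, 8 of 96 tested pathway genes rose and 14 fell in old early (22.9%, against 25.6% of all genes), and 14 rose and 26 fell in old late (41.7%, against 34.5%). Gab1, a docking protein of growth factor receptors, rose from 33.1 ± 4.79 CPM in young (SD, n = 10) to 43.5 ± 4.70 CPM in old early (SD, n = 12) and 46.3 ± 6.58 CPM in old late inputs (SD, n = 7). Ide, which degrades insulin, rose in both (log2 0.51 ± 0.115 and 0.62 ± 0.131 SE, edgeR adjusted p = 0.00127 and 0.000540). It had 31.8, 40.6 and 65.9 CPM in young and 54.5, 74.8 and 81.1 CPM in old late inputs (lowest, median and highest). Pik3r5 rose 1.39-fold and 1.56-fold. Htra1, a protease that cuts IGF-binding proteins, fell by 0.23 ± 0.046 and 0.20 ± 0.053 (SE) on the log2 scale, and Stc2, an inhibitor of the PAPP-A proteases, fell by 0.40 ± 0.136 and 0.68 ± 0.163 (SE). In old late, 5 PI3 kinase, Akt and mTOR genes rose and 12 fell of 26. Socs3 rose 1.87-fold there, and Cbl, a ubiquitin ligase that acts on active receptors, fell to 0.620 of the young level. No pathway gene was called in old late against old early, by sex, or for the interaction of age and sex by edgeR.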

How the data were processed

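Hippocampal polyA RNA was measured in 29 inputs and 7 TRAP libraries. The values deposited are estimated counts in a single gene table, with 1 raw column per library per the file headers. Fractions (tolerance 1e-06) made up 77.2% of nonzero entries, so reads were divided between features and overlapping genes are uncertain. The submitters' processing notes name mm10 and DESeq2. The aligner, the counting tool and the use of strand are not given in the sources used here. Coordinates are those of the deposited table.

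Groups, sex and animals were taken from the labels. Members and gene lists were chosen with earlier results of these data known. Named genes were the 10 members, Cx3cr1, and per comparison and pathway list the called genes with the 2 largest increases and 2 largest decreases at an average log2 CPM over 1. Igfbp3 and, in old late, Ide were named after their values were seen, and so were the choroid plexus splits.

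Counts were rounded and fitted with edgeR 4.0.16 in R 4.3.3 (filterByExpr with a minimum count of 10, TMM scaling, glmQLFit, glmQLFTest), and Benjamini-Hochberg adjusted p-values under 0.05 were called. The pulldown fit held 14 libraries with sex as covariate. The 29 inputs shared 1 fit with group and sex for the contrasts of age, induction and sex, and the interaction from 22 inputs. CPM used TMM library sizes over all 36 libraries, and CPM per kilobase the exon length of GENCODE vM21. Relations between libraries used 100000 permutations (scipy 1.17.1). Pulldowns were paired with inputs through the animal number that the labels give, and in 7 of 7 pairs the deviations from the group means were correlated (r = 0.292 to 0.439 over 15156 genes). Alternatives were other scalings, filters, covariates, DESeq2 1.42.0, limma 3.58.1 voom, females only and each library left out. Library totals of 12.9 M to 20.4 M limit the precision of low genes such as Igf1. The labels give separate animals within each group.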

Additional observations from a re-analysis of the deposited data

How the results depend on the processing

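Of 550 values of members under the alternatives fixed at the start other than leaving out 1 library, 532 stayed on the same side of the threshold, 14 lost the call, 4 gained it and 0 changed direction with a call. In 1230 fits of a member with 1 library left out, the call changed in 36, lost in 30 and gained in 6. Both totals include the induction, sex and interaction comparisons, where no member was called and no call could be lost. In the pulldown, 8 members were called as reported, 9 in the paired fit with the animal as a replicate block, which changed no call but that of Igf2, and 5 with no filter (43.9% of all genes), where Igf1r, Insr and Irs1 lost theirs. Leaving out 1 library gave 6 to 9. Splits by the choroid plexus sum, chosen after the data were seen, gave 4 below the gap (2 animals, 37.6% of all genes) and 4 above it (5 animals, 48.4%). In old early against young, where 3 were called, females alone and inputs below the gap gave 0 (8.06% and 8.15% of all genes). Inputs above the gap gave 3 (13.7% of all genes), and leaving out 1 library gave 2 to 4. Igf2 was the value that reversed, at 0.585 above the gap. In old late against young, 4 were called, against 2 in females alone, 1 below the gap, 2 above it (18.8%, 12.4% and 17.6% of all genes) and 2 to 5 without 1 library. The main fit called 2536 of 14948 genes higher and 2615 lower. Without old late replicate 2 these were 2130 and 2222 of 15005, and without replicate 5 they were 2248 and 2445 of 15004, with 2 members called in each. Shares of all genes in the other fits without 1 library are not given here. Without 1 library the interaction gave 0 to 1, and the induction and sex comparisons 0. DESeq2 called 30 genes higher and 28 lower in old late against old early, against 4 and 1 by edgeR, none of them a member. Smaller sets have fewer samples, and other causes were not tested. Of 30 sets of member values in groups of 7 and 10 libraries, 0 held a library beyond Dixon's limit. The old early group, with 12 libraries, was not examined in this way. There Igfbp4 had 171 CPM in replicate 5, with the next highest value at 127 CPM. Igfbp5 had 318 CPM in replicate 10 of that group, with the next highest value at 248.5 CPM.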
